A study of Mus musculus with 9 samples.

Results

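The TNF ligands, receptors and Traf1 described here are 10 of the 55401 genes in a table of TPM values, taken by their symbols: the ligands Tnf, Ltb, Tnfsf9, Tnfsf12 and Tnfsf13b, the receptors Tnfrsf1a, Tnfrsf1b, Tnfrsf9 and Fas, and the adaptor Traf1. The RNA came from RAW264.7, a mouse macrophage line that arose from a tumor induced by the Abelson leukemia virus, with a wild-type genotype in every group. Cells received the vehicle DMSO (the DMSO group), DMSO with lipopolysaccharide (the LPS group), or LPS with skatole, an indole compound (the LPS + Ska group). The labels give 24 h of treatment for all groups, as does the study's results text. Its methods section gives a longer time, so the time is uncertain. The labels do not list DMSO for the LPS + Ska group, and they describe cells seeded on a single plate before the treatment groups were made. Each group has 3 columns, numbered 5, 6 and 7, and the comparisons ask what LPS changed in these genes and what skatole changed in the presence of LPS.

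Ligands of the TNF superfamily are trimeric proteins, mostly made on the cell membrane, and their receptors gather cytoplasmic adaptors when a ligand binds. One class of receptors carries a death domain and recruits adaptors such as Tradd and Fadd, and the other recruits TRAF proteins directly, both of which can lead to NF-κB activation. Macrophages are a main source of TNF after LPS is sensed by Toll-like receptor signaling, and they carry TNF receptors of both classes.

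The 3 columns of LPS, and likewise those of LPS + Ska, are not 3 independent measurements. Replicate 5 equalled the mean of replicates 6 and 7, within 0.0001 TPM, in 17950 of 17950 genes with LPS and in 17658 of 17658 genes with LPS + Ska for which both of these were above 0, whereas this held for 0.166% to 0.207% of genes in DMSO. At most 2 values per gene can thus be independent in either group, n = 3 below counts columns, and adjusted p-values are approximate and measure only the spread between columns, which may be technical. A call was therefore also made on the 2 values recovered from the tied columns. All 8 macrophage markers were expressed in every group, whereas no marker of T cells, B cells, fibroblasts or epithelial cells exceeded 0.672 TPM in any column. The summed TPM of the macrophage markers was lower with LPS (7273 to 7673) than with DMSO (12310 to 13270) or LPS + Ska (13560 to 13850), a sum made up mostly of Lyz2, which alone returned to 10061 TPM with LPS + Ska from 4423 TPM with LPS and 9150.5 TPM with DMSO. Other markers followed the sum only in part. Csf1r, Spi1 and Cd68 fell with LPS and did not return with LPS + Ska. The mean TPM in DMSO, LPS and LPS + Ska was 834.6, 521.6 and 466.7 for Csf1r and 408.3, 232.9 and 230.2 for Spi1, both called lower in either LPS group than in DMSO, and 839.3, 657.1 and 607.8 for Cd68, which was inside the fold change limit. From LPS to LPS + Ska, Cd14 (log2 fold change 0.54, adjusted p = 8.09e-05) and Itgam (0.39, adjusted p = 0.0113) rose inside the fold change limit. Fcgr1 was called lower (−0.59, adjusted p = 0.000191), a call lost under 3 of 17 alternatives, and Adgre1 was not called (−0.07, adjusted p = 0.632). The part of these shifts in the results was not tested. A gene was called higher or lower where the adjusted p was under 0.05 and the fold change exceeded 1.5 or was under 0.67. Fold changes are of TPM + 1, which shrinks those of low genes. For Tnfsf13b in LPS + Ska compared with LPS, the fold change was 0.587 and the ratio of mean TPM was 0.463. Of the 12819 tested genes, those whose mean TPM was 1 or more, 12.7% were called higher and 20.0% lower in LPS compared with DMSO, 3.35% higher and 6.14% lower in LPS + Ska compared with LPS, and 11.4% higher and 25.3% lower in LPS + Ska compared with DMSO. With median-ratio scaling of the columns, the share of called genes that were higher moved from 38.9% to 48.8%, from 35.3% to 52.4% and from 31.0% to 49.6% in these comparisons.

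Ltb and Tnf are neighbors on chromosome 17, with 3060 bases between them. Ltb lies at chr17:35194439-35196320 on the plus strand and Tnf at chr17:35199381-35202007 on the minus strand of GRCm38. Their sequences before the start are shown because both genes rose with LPS while only Ltb was called lower when skatole was added. Windows are the 250 bases before the RefSeq start (GRCm38.p6). The Tnf window is printed whole, at chr17:35202008-35202257 on the minus strand, and for Ltb the 182 bases outside the gene model above are printed, at chr17:35194257-35194438 on the plus strand. Capitals mark matches on either strand to a κB motif or to the ETS motif GAGGAA.
Ltb: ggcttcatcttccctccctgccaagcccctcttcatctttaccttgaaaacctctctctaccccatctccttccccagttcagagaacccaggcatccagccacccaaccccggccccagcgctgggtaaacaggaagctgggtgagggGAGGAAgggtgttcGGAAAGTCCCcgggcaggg
Tnf: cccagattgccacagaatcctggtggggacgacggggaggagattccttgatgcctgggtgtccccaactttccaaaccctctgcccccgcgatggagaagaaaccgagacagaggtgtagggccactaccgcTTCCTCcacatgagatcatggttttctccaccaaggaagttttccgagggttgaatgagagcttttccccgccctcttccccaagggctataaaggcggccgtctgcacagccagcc
The Ltb window held a κB match that began 87 bases before the start and an ETS match that began 101 bases before it, and the matches did not overlap. The Tnf window held 1 ETS match, 117 bases before the start, and no match to the κB motif searched. Among all 32851 RefSeq windows of this length, 7.25% held the κB motif and 23.3% the ETS motif. Windows were found for 8 of the 10 genes, with Tnfsf9 and Tnfsf12 missing. The κB motif was also found before Tnfrsf9 and the ETS motif before Tnfrsf1b. Tnfrsf9 and Tnfsf13b had 2 windows each, and all matches of either gene were in 1 of them. The AP-1 motif TGANTCA (6.75% of all windows) was found for Fas, Tnfrsf9 and Tnfsf13b, and the GAS motif TTCNNNGAA (7.02%) for Fas, Ltb, Tnfrsf1a, Tnfrsf1b and Tnfrsf9, while none of the 4 motifs was found for Traf1. A match of letters is a description and not a measured binding site. Only the 250 bases of each window were searched. Whether the motifs bear on the difference between Ltb and Tnf was not tested.

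LPS raised 4 of the 9 genes that passed the filter on low values, the ligands Tnf and Ltb, the death receptor Fas and the adaptor Traf1, where 12.7% of all tested genes were called higher. It lowered 2, Tnfsf12 and Tnfrsf1a, where 20.0% of all tested genes were called lower. Skatole added to LPS lowered 2 of the 9, Ltb and Tnfsf13b, where 6.14% of all tested genes were called lower, and raised none. LPS + Ska compared with DMSO gave 4 genes called higher, which were Tnf, Ltb, Fas and Traf1, and 4 called lower, which were Tnfsf9, Tnfsf12, Tnfsf13b and Tnfrsf1a, where 11.4% and 25.3% of all tested genes were called higher and lower. LPS columns enter both comparisons that name LPS alone, and DMSO columns enter both comparisons with DMSO, so the comparisons are not independent. The median log2 fold change of the 9 genes was 0.21 with LPS compared with DMSO, −0.12 with LPS + Ska compared with LPS and 0.08 with LPS + Ska compared with DMSO, beside −0.07, −0.10 and −0.18 for all genes tested. Columns of the groups did not overlap for 8, 4 and 8 of the 9 genes, beside 68.9%, 51.2% and 64.8% of all genes. The members were chosen with earlier results of these data known, so the counts beside these shares are a description.

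**Figure D1:**
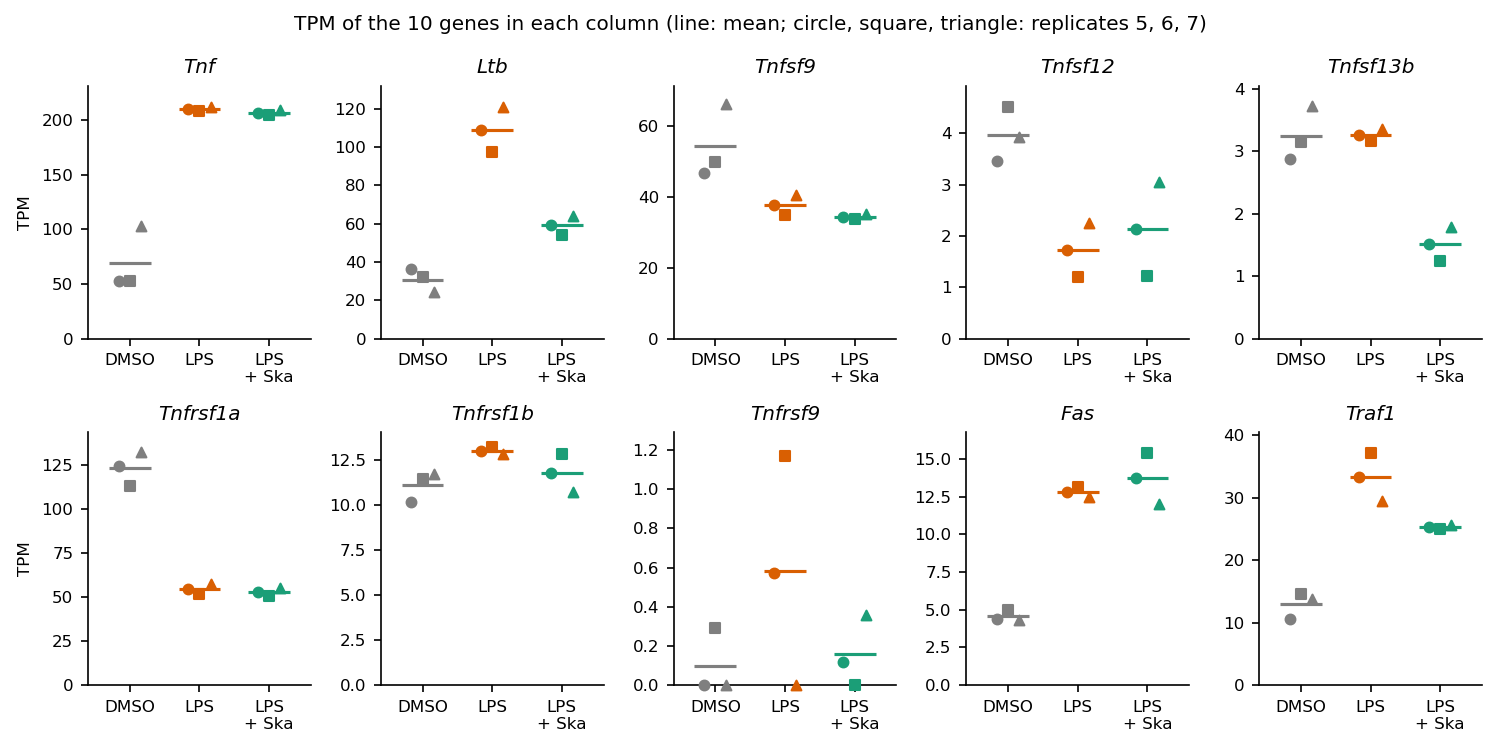
TPM (linear axes from 0) of each of the 10 genes in the DMSO, LPS and LPS + Ska columns, with a line at the mean of each group and a circle, square and triangle for replicates 5, 6 and 7. Tnf reached the same range with LPS and LPS + Ska, Ltb with LPS + Ska lay between the other groups, and the 3 Tnfsf13b columns with LPS + Ska, 1.24 to 1.78 TPM, lay below all others.

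Tnf (ENSMUSG00000024401) encodes the cytokine TNFα. In DMSO replicates 5, 6 and 7, Tnf was at 53.1, 52.8 and 102.9 TPM. It was at 210.4, 208.5 and 212.3 TPM with LPS and at 207.0, 205.0 and 209.0 TPM with LPS + Ska. The LPS columns and the LPS + Ska columns all lay above the DMSO columns, among which replicate 7 stood apart from the other two. Tnf rose by 1.65 on the log2(TPM + 1) scale with LPS (SE 0.21, adjusted p = 0.000128), and by 1.97 without DMSO replicate 7. From LPS to LPS + Ska, the log2 fold change of Tnf was −0.02, with a 95% interval from −0.50 to 0.45 (adjusted p = 0.947), which lies inside the fold change limits. The shared fit behind this interval takes in the spread of the DMSO columns, while the LPS and LPS + Ska columns spanned 205.0 to 212.3 TPM.

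Ltb (ENSMUSG00000024399) encodes lymphotoxin β, which holds lymphotoxin α at the membrane and binds the receptor Ltbr. It was at 36.3, 31.9 and 24.3 TPM in DMSO replicates 5, 6 and 7, at 109.1, 97.4 and 120.7 TPM with LPS, and at 59.2, 54.1 and 64.2 TPM with LPS + Ska. The groups did not overlap, and LPS + Ska lay between DMSO and LPS. Ltb rose by 1.80 on the log2 scale with LPS (SE 0.14, adjusted p = 6.26e-06). It fell by 0.87 from LPS to LPS + Ska (SE 0.14, adjusted p = 0.0022, and 0.011 on recovered values), and remained 0.93 above DMSO (adjusted p = 0.000297). The call against LPS held under all 17 alternatives, with log2 fold changes from −0.95 to −0.77. The ratio of Ltb to Tnf, a quantity chosen after its values were seen and given without a test, was 0.518, 0.467 and 0.569 in the LPS columns and 0.286, 0.264 and 0.307 in the LPS + Ska columns, and from 0.236 to 0.683 in DMSO. The gene model of Ltb contains the miRNA gene Mir6973a on the same strand, listed at a mean of 4.80, 7.05 and 4.58 TPM in DMSO, LPS and LPS + Ska.

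Tnfsf13b (ENSMUSG00000031497) encodes BAFF, a survival factor for B cells made by myeloid cells. Its level was low, at 2.88, 3.15 and 3.73 TPM in DMSO replicates 5, 6 and 7 and at 3.27, 3.17 and 3.37 TPM with LPS. With LPS + Ska it was at 1.51, 1.24 and 1.78 TPM, below every column of the other groups. The log2 fold change with LPS was 0.01, with a 95% interval from −0.30 to 0.32 (adjusted p = 0.96). Tnfsf13b fell by 0.77 from LPS to LPS + Ska (SE 0.14, adjusted p = 0.00353, and 0.0235 on recovered values) and was 0.76 lower than in DMSO on the same scale (log2 fold change −0.76, adjusted p = 0.000921). Of the receptors for BAFF, Tnfrsf13b was at a mean of 1.19, 1.26 and 1.20 TPM in DMSO, LPS and LPS + Ska, and Tnfrsf13c and Tnfrsf17 did not pass the filter.

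Tnfsf9 (ENSMUSG00000035678) encodes a costimulatory ligand, whose receptor is Tnfrsf9. It was at 46.6, 49.8 and 66.1 TPM in DMSO replicates 5, 6 and 7, at 37.6, 34.9 and 40.3 TPM with LPS and at 34.4, 33.6 and 35.1 TPM with LPS + Ska. Every DMSO column was above every other column. With LPS the log2 fold change was −0.50 (95% interval −0.77 to −0.23, adjusted p = 0.00511), inside the fold change limit and so not called, although it was called without DMSO replicate 5 (−0.60). Tnfsf9 was called lower in LPS + Ska than in DMSO (log2 fold change −0.63, adjusted p = 0.00131), and the call was lost without DMSO replicate 7 (−0.48), with median-ratio scaling (−0.43) and after removing ribosomal protein and mitochondrial-genome genes from the TPM total (−0.57). Between LPS + Ska and LPS its log2 fold change was −0.12 (95% interval −0.39 to 0.14, adjusted p = 0.463). The lincRNA Gm11110 overlaps it on the opposite strand, at a mean of 15.1, 11.6 and 11.8 TPM, and as no strand setting is given in the sources used here, reads of the pair may not have been told apart.

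Tnfsf12 (ENSMUSG00000097328) encodes TWEAK, the ligand of Tnfrsf12a. It was at 3.46, 4.52 and 3.92 TPM in DMSO replicates 5, 6 and 7, at 1.72, 1.20 and 2.25 TPM with LPS and at 2.13, 1.22 and 3.05 TPM with LPS + Ska. Both LPS-treated groups lay below DMSO and overlapped each other. Tnfsf12 fell by 0.88 on the log2 scale with LPS (SE 0.23, adjusted p = 0.009). The log2 fold change of LPS + Ska against DMSO was −0.70 (adjusted p = 0.0241), a call that was lost under 6 of 16 alternatives, namely no filter, median-ratio scaling, and without DMSO replicate 6 (−0.62), DMSO replicate 7 (−0.71), LPS + Ska replicate 5 (−0.72) or LPS + Ska replicate 6 (−0.48). Between LPS + Ska and LPS it was 0.18, with a 95% interval from −0.35 to 0.70 (adjusted p = 0.603). Its counting is uncertain because the read-through gene Tnfsfm13, at a mean of 1.84, 0.431 and 0.478 TPM, covers it on the same strand of chr11:69686250-69695849.

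**Figure D2:**
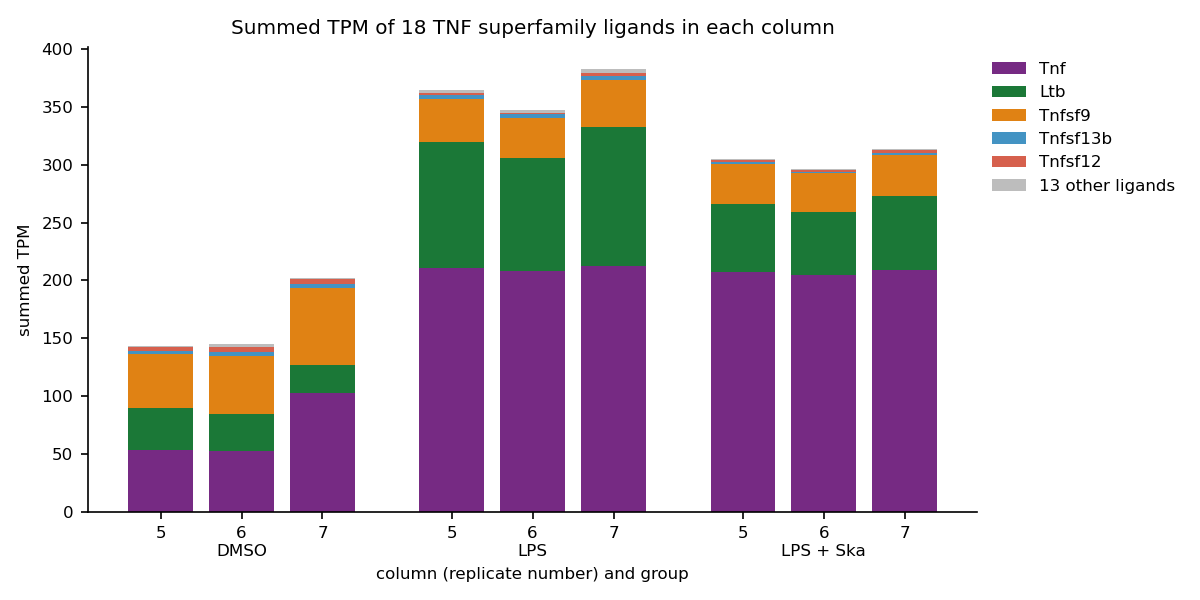
Summed TPM of 18 TNF superfamily ligands (bar height, linear axis) in each DMSO, LPS and LPS + Ska column, divided by gene, with the replicate number under each bar. Tnf and Ltb made up most of the LPS bars, and the Ltb part was smaller in the LPS + Ska bars while the Tnf part spanned 205.0 to 212.3 TPM over both groups.

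TPM takes transcript length into account, so levels of different genes can be set side by side. Of 18 TNF superfamily ligands listed, 5 passed the filter, and these were the 5 ligands above. The other 13 did not exceed 1.83 TPM in any column, and 5 of them were at 0 in every column. Lta, the partner of Ltb, was at a mean of 0.712, 1.39 and 0.284 TPM in DMSO, LPS and LPS + Ska and was not tested. The summed TPM of the 18 ligands was 143 to 202 in DMSO, 348 to 383 with LPS and 296 to 314 with LPS + Ska. Tnf made up 36.4% to 50.9% of this sum in DMSO, 55.5% to 60.0% with LPS and 66.6% to 69.2% with LPS + Ska. The share of Ltb was 12.01% to 25.4%, 28.0% to 31.6% and 18.3% to 20.5% in the same groups, and that of Tnfsf9 was 32.6% to 34.3% in DMSO and at most 11.3% in the others.

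Tnfrsf1a (ENSMUSG00000030341) encodes TNFR1, the death domain receptor of TNF. It was at 124.7, 113.0 and 132.6 TPM in DMSO replicates 5, 6 and 7, at 54.5, 51.6 and 57.3 TPM with LPS and at 52.9, 50.5 and 55.3 TPM with LPS + Ska. The DMSO columns lay far above the others, and the LPS and LPS + Ska columns overlapped. Tnfrsf1a fell by 1.16 on the log2 scale with LPS (SE 0.07, adjusted p = 1.73e-06). Its log2 fold change between LPS + Ska and LPS was −0.04, with a 95% interval from −0.21 to 0.12 (adjusted p = 0.707), which lies inside the fold change limits. In RNA from many cells, fewer cells with a transcript and less of it per cell cannot be told apart.

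Tnfrsf1b (ENSMUSG00000028599) encodes TNFR2, the TNF receptor without a death domain. It was at 10.2, 11.4 and 11.7 TPM in DMSO replicates 5, 6 and 7, at 13.01, 13.2 and 12.8 TPM with LPS and at 11.8, 12.8 and 10.7 TPM with LPS + Ska. The LPS columns spanned less than the columns of either other group and lay above those of DMSO. Its log2 fold change was 0.21 with LPS (95% interval 0.01 to 0.42, adjusted p = 0.0697), −0.14 from LPS to LPS + Ska (−0.34 to 0.07, adjusted p = 0.29) and 0.08 for LPS + Ska against DMSO (−0.13 to 0.28, adjusted p = 0.493), and it was called in none of these.

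The ratio of Tnfrsf1b to Tnfrsf1a within a column was 0.0814, 0.101 and 0.0885 in DMSO replicates 5, 6 and 7, 0.239, 0.256 and 0.224 with LPS and 0.222, 0.254 and 0.194 with LPS + Ska. TNFR1 transcripts thus stayed in excess in every column. The log2 ratio was −3.47 ± 0.16 (SD, n = 3) in DMSO, −2.06 ± 0.097 with LPS and −2.17 ± 0.19 with LPS + Ska. It was 1.41 higher with LPS than with DMSO, and the exact two-sided permutation test gave p = 0.1, the smallest that 3 columns against 3 allow. Between LPS + Ska and LPS it differed by −0.11 (exact permutation test, p = 0.4). Tied columns are not 3 exchangeable samples, so both p-values are approximate. On recovered values the exact permutation test gave p = 0.2 for LPS compared with DMSO and p = 0.667 for LPS + Ska compared with LPS.

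Fas (ENSMUSG00000024778) encodes a death receptor that recruits Fadd. It was at 4.36, 4.96 and 4.32 TPM in DMSO replicates 5, 6 and 7, at 12.8, 13.1 and 12.5 TPM with LPS and at 13.7, 15.4 and 12.04 TPM with LPS + Ska. Both LPS-treated groups lay above DMSO and overlapped each other. Fas rose by 1.32 on the log2 scale with LPS (SE 0.10, adjusted p = 7.26e-06) and was 1.40 above DMSO with LPS + Ska (adjusted p = 3.91e-06). With skatole added to LPS its log2 fold change was 0.08, with a 95% interval from −0.15 to 0.32 (adjusted p = 0.578). Its ligand Fasl was at most 0.162 TPM in any column.

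Tnfrsf9 (ENSMUSG00000028965), the receptor of Tnfsf9, was near the lowest values of the table and was not tested. It was listed at 0, 0.293 and 0 TPM in DMSO replicates 5, 6 and 7, at 0.574, 1.17 and 0 TPM with LPS and at 0.119, 0 and 0.358 TPM with LPS + Ska. The groups overlapped. It lies within chr4:150914562-150946102, where Camta1 on the opposite strand was at a mean of 13.3 TPM with LPS.

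Traf1 (ENSMUSG00000026875) encodes a TRAF adaptor that lacks the RING domain and acts with Traf2 at TNFR2. It was at 10.6, 14.6 and 13.8 TPM in DMSO replicates 5, 6 and 7, at 33.4, 37.2 and 29.6 TPM with LPS and at 25.3, 25.1 and 25.6 TPM with LPS + Ska. The groups did not overlap, with LPS + Ska between the others. Traf1 rose by 1.30 on the log2 scale with LPS (SE 0.12, adjusted p = 1.86e-05) and was 0.92 above DMSO with LPS + Ska (adjusted p = 0.000131). When skatole was added to LPS its log2 fold change was −0.38 (95% interval −0.65 to −0.11, adjusted p = 0.0433), inside the fold change limit and so not called, and on recovered values the adjusted p was 0.109. Among the other TRAF genes, Traf2, Traf3, Traf4, Traf5 and Traf6, none was called with LPS or between LPS + Ska and LPS. Traf2 was lower with LPS inside the fold change limit (log2 fold change −0.53, adjusted p = 0.00439). It was called lower in LPS + Ska than in DMSO (−0.87, adjusted p = 0.000208). From LPS to LPS + Ska the log2 fold change was −0.34 for Traf2 (adjusted p = 0.0663) and −0.37 for Traf3 (adjusted p = 0.0131).

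**Figure D3:**
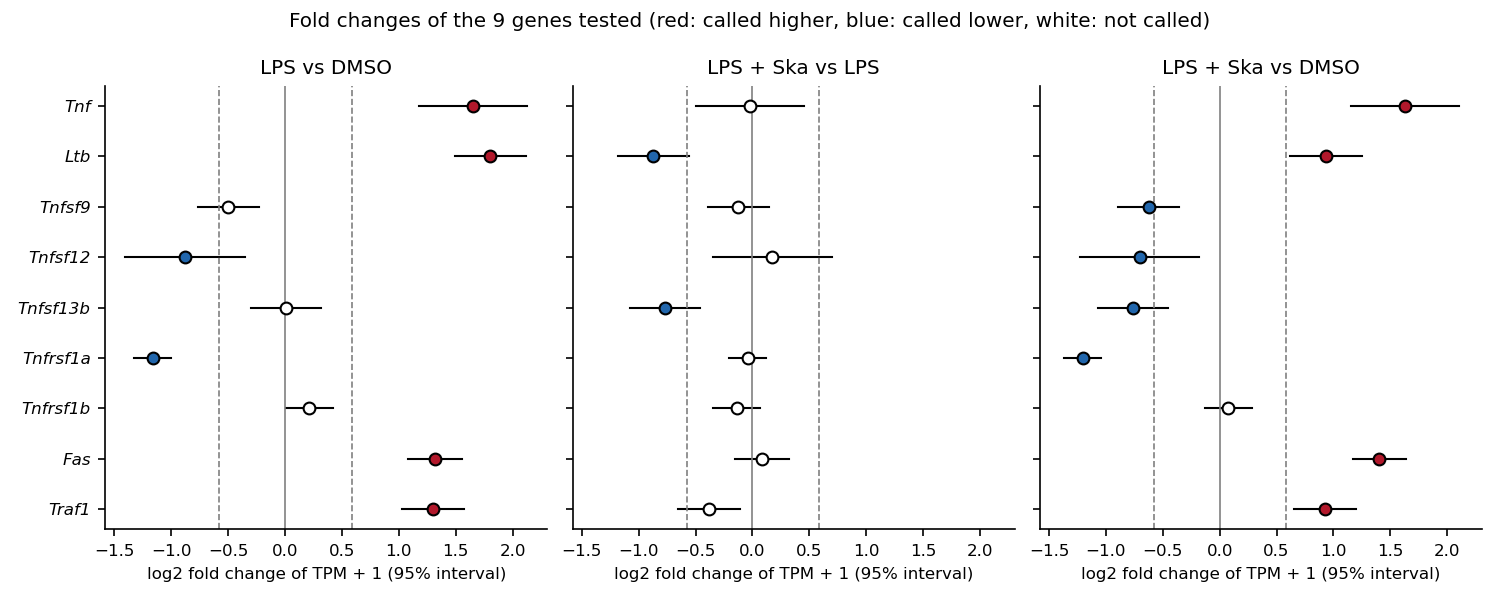
Log2 fold change on the TPM + 1 scale (points) with its 95% interval (lines) for the 9 genes tested in LPS compared with DMSO, LPS + Ska compared with LPS, and LPS + Ska compared with DMSO. Filled points were called, dashed lines mark fold changes of 1.5 and 0.67, and in the middle panel the points of Ltb (−0.87) and Tnfsf13b (−0.77) lie beyond the dashed line.

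The order of the 10 genes by mean TPM changed with treatment. Tnfrsf1a led in DMSO, followed by Tnf and Tnfsf9, whose columns overlapped, and Ltb. With LPS, Tnf led, followed by Ltb, Tnfrsf1a and Tnfsf9, with no overlap among these 4. With LPS + Ska, Tnf led again, and the columns of Ltb and Tnfrsf1a, next in order, overlapped. Other neighbors with overlapping columns were Traf1 and Tnfrsf1b, Fas and Tnfsf12, and Tnfsf12 and Tnfsf13b in DMSO. Tnfsf9 and Traf1, and Tnfrsf1b and Fas overlapped with LPS, as did Fas and Tnfrsf1b, and Tnfsf12 and Tnfsf13b with LPS + Ska. Tnfrsf9 was the lowest in each group.

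The tested genes whose log2(TPM + 1) was most like that of Tnf over the 9 columns were Snu13, a spliceosome component (Pearson r = 0.995), Nfkbiz, a nuclear IκB protein (r = 0.994), and Cbwd1 (r = 0.993). Those most like Traf1 were Rwdd1 (r = 0.994), the initiation factor gene Eif1ax (r = 0.994) and the ribosomal protein gene Rps15a (r = 0.991). The correlation does not measure the size of a change. Nfkbiz was at a mean of 12.1, 41.0 and 38.3 TPM in DMSO, LPS and LPS + Ska. In the same groups Snu13 was at 161, 194 and 192 TPM and Cbwd1 at 19.3, 30.8 and 31.4 TPM. Rwdd1 was at 137, 180 and 170 TPM, Eif1ax at 48.2, 61.4 and 57.9 TPM and Rps15a at 181, 363 and 284 TPM. These columns share the group means and the tie, and the correlations describe them with no test.

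Beyond the 4 receptors above, 24 TNF receptor genes were listed and 11 of them passed the filter. With LPS, 5 of the 11 were called higher and 2 lower, where 12.7% and 20.0% of all tested genes were. Those higher were Tnfrsf26 (log2 fold change 1.30), Cd40, a receptor that activates macrophages (1.07), Tnfrsf10b (0.74), Tnfrsf23 (0.68) and Tnfrsf22 (0.59). Those lower were Tnfrsf12a, the receptor of Tnfsf12 (−1.87), and Relt (−0.78). The call of Tnfrsf22 was lost without DMSO replicate 5 or without LPS replicate 6, and that of Tnfrsf23 without DMSO replicate 5 (the lowest log2 fold changes over the alternatives were 0.40 and 0.58), and as close paralogs the pair may share reads.

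Between LPS + Ska and LPS, 1 of the 11 was called higher and 2 lower, where 3.35% and 6.14% of all tested genes were. Tnfrsf12a rose from 5.23 ± 1.69 to 8.62 ± 0.987 TPM (SD, n = 3, log2 fold change 0.66, adjusted p = 0.0287), still below the 21.3 ± 2.42 TPM of DMSO. Tnfrsf22, a decoy receptor, fell from 17.98 ± 0.312 to 11.5 ± 0.728 TPM (log2 fold change −0.61, adjusted p = 0.0136). Tnfrsf4, a costimulatory receptor, fell from 2.09 ± 0.608 to 0.519 ± 0.289 TPM. Its log2 fold change was −1.02 on the TPM + 1 scale (adjusted p = 0.0369) and −1.9 to −0.88 over the alternatives. The calls of Ltb and Tnfsf13b were lost under no alternative in which they were tested, whereas these were lost under 6 of 17 alternatives for Tnfrsf12a, 5 of 17 for Tnfrsf22 and 8 of 16 for Tnfrsf4. On recovered values the adjusted p was 0.0337 for Tnfrsf12a, 0.0606 for Tnfrsf22 and 0.0997 for Tnfrsf4. A replicate block ended the call of Tnfrsf4 (adjusted p = 0.0645). The median log2 fold change of the 11 was −0.11, beside −0.10 for all genes.

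All 31 listed genes of receptor-proximal signaling were tested, and 3 were called higher and 7 lower with LPS, where 12.7% and 20.0% of all tested genes were. Higher were Mlkl, the effector of necroptosis (1.31), Tnip1, a partner of A20 (0.99), and Tab2 (0.67). The lower ones included Tab1, a partner of the kinase TAK1 (−1.35), the noncanonical NF-κB kinase Map3k14 (−1.13) and Tradd, the adaptor of TNFR1 (−1.13). The median log2 fold change of the 31 was −0.03, beside −0.07 for all genes. Between LPS + Ska and LPS none was called higher and 1 lower, where 3.35% and 6.14% of all tested genes were. The gene called lower was Tnfaip3, which encodes the NF-κB inhibitor A20 (12.7 ± 1.69 to 6.86 ± 0.593 TPM, SD, n = 3, log2 fold change −0.79, adjusted p = 0.0346). This call was lost under 9 of 17 alternatives, among them leaving out any LPS or LPS + Ska column (the highest adjusted p of all alternatives was 0.106) and the recovered values (adjusted p = 0.105), while the log2 fold change stayed between −0.88 and −0.70 over these alternatives. The median of the 31 was −0.24 in this comparison, beside −0.10 for all genes.

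Of 11 genes for shedding of TNF from the membrane or for turnover of its mRNA, 10 were tested. LPS compared with DMSO gave 2 called higher and 2 lower, where 12.7% and 20.0% of all tested genes were. With LPS, Zc3h12a, the endonuclease Regnase (0.84), and Elavl1, the mRNA-binding protein HuR (0.66), were called higher. Zfp36, which encodes tristetraprolin, a protein that speeds decay of Tnf mRNA (−1.02), and its relative Zfp36l2 (−0.91) were called lower. None of the 10 was called between LPS + Ska and LPS, but 3 had an adjusted p under 0.05 inside the fold change limit, Zfp36 (log2 fold change −0.45, adjusted p = 0.0273), its relative Zfp36l1 (−0.57, adjusted p = 0.00683) and Elavl1 (−0.28, adjusted p = 0.0123). Of all tested genes, 3.35% were called higher and 6.14% lower in this comparison. By adjusted p alone, 1139 of the 12819 were higher and 2524 lower. Zfp36l1 was called lower under 3 of 17 alternatives. Over these the adjusted p went up to 0.0913 for Zfp36, 0.0839 for Elavl1 and 0.0368 for Zfp36l1. Adam17, the protease that sheds TNF, was at 125.9 ± 15.9, 130.4 ± 5.96 and 120.3 ± 11.9 TPM (SD, n = 3) in DMSO, LPS and LPS + Ska.

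**Figure D4:**
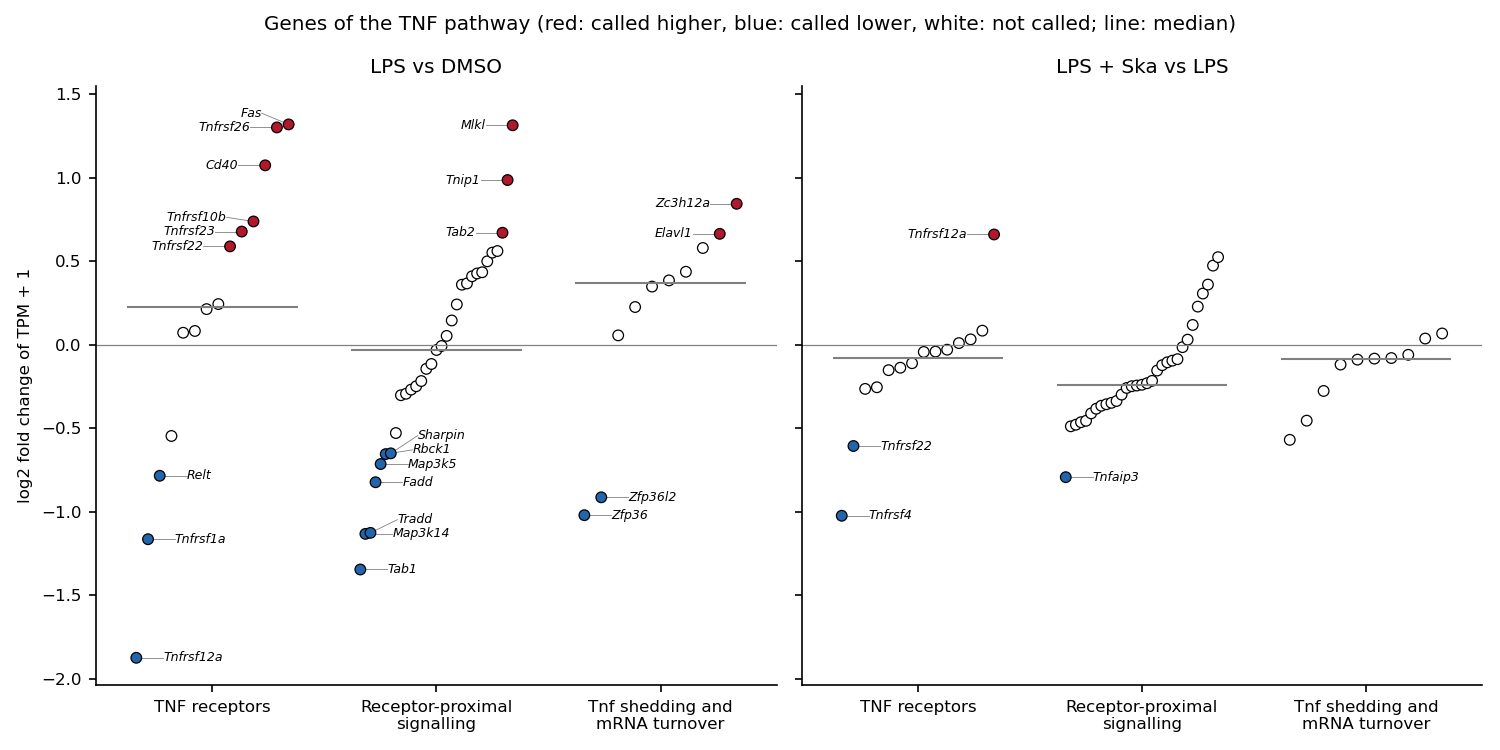
Log2 fold change on the TPM + 1 scale of the tested TNF receptors, receptor-proximal signaling genes and genes for Tnf shedding and mRNA turnover, in LPS compared with DMSO (left) and LPS + Ska compared with LPS (right). Each point is a gene, filled and named where called, and each line is the median of the list. Most called genes are in the left panel, and the right panel names only Tnfrsf12a, Tnfrsf22, Tnfrsf4 and Tnfaip3.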

How the data were processed

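RNA of RAW264.7 cells (DMSO, LPS and LPS + Ska, 3 columns each) was sequenced from NEBNext Ultra libraries. The submitters' processing notes name fastp 0.20.1, HISAT2 2.2.1, StringTie 2.0 and mm10. The authors deposited TPM, which keeps no sequencing depth, so depth is unknown and no counting interval is given. Symbols were matched for 55141 of 55401 identifiers, and positions came from GENCODE (GRCm38). log2(TPM + 1) was fitted for the 12819 genes whose mean TPM was 1 or more with limma 3.58.1 in R 4.3.3 (eBayes with an intensity trend, all 9 columns), with Benjamini-Hochberg adjustment over all genes. The recovered values are replicate 5 plus and minus 0.5 times its difference from the larger of replicates 6 and 7, a form taken from the columns. Where only 1 of replicates 6 and 7 was at 0, the other was 3 times replicate 5 in 78.9% (LPS) and 77.0% (LPS + Ska) of genes, as this form gives when 1 value is 0. On simulated data fold changes were recovered with little bias, but tied columns gave small p-values somewhat too often. The share of changed genes first required of the simulation was not reached, and this requirement was lowered after the result was seen. The alternatives tried were recovered values, a smaller pseudocount (0.1), 2 rescalings, dropping the filter or raising it to 5 TPM, calls by adjusted p alone, fits of the compared groups alone, leaving out each column in turn and a replicate block. Counts out of 17 alternatives leave out calls by adjusted p alone. Counts out of 16 are for genes that did not pass the filter of 5 TPM. The named genes were all members and, for each other list, up to 3 called genes per direction with the largest change, plus every receptor called between LPS + Ska and LPS. Tnfrsf10b, Tnfrsf22 and Tnfrsf23 with LPS, the other TRAF genes, Lta, Fasl, Adam17, Zfp36l1, the macrophage markers and the BAFF receptors were named after their values were seen. So were the receptor-proximal genes inside the fold change limit. The members and lists were chosen with earlier results of these data known.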

Additional observations from a re-analysis of the deposited data

How the results depend on the processing

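Called members kept their calls under the alternatives except those of Tnfsf9 and Tnfsf12 given in the results. With the filter raised to 5 TPM, Tnfsf12 and Tnfsf13b were not tested, and members called lower numbered 1 in LPS compared with DMSO, 1 in LPS + Ska compared with LPS and 2 in LPS + Ska compared with DMSO. Median-ratio scaling left 2 called lower in the last comparison, and leaving out single columns gave 2 to 4, with 2 without DMSO replicate 7. Over all genes, adjusted p alone gave 3354 higher and 4380 lower for LPS compared with DMSO, 1139 and 2524 for LPS + Ska compared with LPS, and 2915 and 5201 for LPS + Ska compared with DMSO. Raising the filter to 5 TPM gave 516 lower for LPS + Ska compared with LPS, and median-ratio scaling gave 2212 higher in LPS + Ska than in DMSO. This scaling moved the median of all genes from −0.18 to 0 in that comparison. Replicate numbers were not treated as pairs, since the study does not say that they pair the samples. Correlations of same-numbered columns were −0.032 to 0.08 with DMSO. They were 0.13, 0.15 and 0.38 between LPS and LPS + Ska, which are tied in the same form. With a replicate block, 4 members were higher and 2 lower with LPS, 0 and 2 in LPS + Ska compared with LPS, and 4 and 4 in LPS + Ska compared with DMSO, and of the listed genes 1 changed its call, Tnfrsf4 between LPS and LPS + Ska (blocked adjusted p = 0.0645). Leaving out a column does not undo the tie, and TPM cannot show counting error for low genes such as Tnfsf12, Tnfsf13b and Tnfrsf9.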
